A study of Mus musculus with 27 samples.

Results

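Parental B16 cells, a mouse melanoma line without any change to its Tbx2 gene, were compared 48 h after transfection with Tbx2 siRNA (siTbx2, 3 samples) or a nonsilencing control siRNA (siControl, 3 samples). These are 6 of the 27 samples of the series, which also holds untransfected cells and clones 2 and 9, B16 cells whose endogenous Tbx2 carries an HA tag. Both groups are the same unedited line after transfection with an siRNA, so the labels set them apart by the siRNA alone. The mix of spike-in transcripts added to the RNA differed along with the siRNA, as given below. The labels name no second Tbx2 siRNA, so loss of Tbx2 and other effects of that siRNA cannot be told apart, nor can, in bulk RNA, fewer cells of a state and less RNA per cell. The untransfected parental cells were not analysed here. RNA was read from the 3′ ends of polyadenylated transcripts. All rows of the deposited table for this comparison were taken except spike-in transcripts and names that a spreadsheet had turned into dates, which left 23393 genes of 23512 entries, after removal of 92 spike-ins and 27 date-like names. The table gives each gene's mean normalized count, its log2 fold change (siTbx2 over siControl), the standard error, and a p-value and an adjusted p from a DESeq2 fit. It holds no value per library, so the level in each sample and the depth per library are unknown, and the precision of each value shows only in its standard error. The mean is the same in the tables of all 3 lines and was therefore taken over more libraries than these 6. The study's methods call the samples of each group biological replicates.

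Tbx2 belongs to the T-box family, transcription factors that recognise a DNA sequence known as the T-element and that direct the development of many organs. Tbx2 acts mainly as a repressor and is best known in melanoma and breast cancer for holding back senescence, the lasting exit from the cell cycle, in part by repressing Cdkn1a, which encodes the cyclin-dependent kinase inhibitor p21. E2F factors switch on the genes of DNA replication and are held in check by the retinoblastoma protein, which p21 keeps active.

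The study lists 3 mouse Tbx2 siRNAs and does not assign them to lines there, and the sample labels write only siTbx2. Number 06 was taken as the siRNA of parental cells because the title of a supplementary sheet for this comparison carries that number, so the sequences and seed matches given here rest on that title. Another title for the same comparison writes siTbx2a, a name that the siRNA list does not hold. Number 06 matches a single stretch in the last exon of Tbx2. Its guide strand and target are shown because several results below refer to matches with them, and capitals mark guide bases 2 to 8, the seed, and its complement in the target.
guide: aGAAAUUUgcaucaaaucc
target: ggatttgatgcAAATTTCt
The target lies at chr11:85841232-85841250 of GRCm38, on the plus strand. It falls inside the 3′ UTR, which is part of exon 7 of 7. The nonsilencing siRNA was a commercial universal control. Tested genes without a protein-coding transcript under the same symbol in the annotation used were not compared with the 19-base target. Besides Tbx2 itself, no gene that was compared came nearer to it than 3 mismatches, and 11 genes had a stretch with 3. Of these 11, 3 were lower with siTbx2 and 4 were higher, with a median log2 fold change of 0.33. The deepest of the falls was that of Mrpl45, which encodes a protein of the large mitochondrial ribosomal subunit. Its nearest stretch, with mismatched bases in capitals, lies in exon 4 of 8 upstream of the stop codon, at chr11:97323867-97323885.
Mrpl45: gAatttgatgcaaatttTA
The other genes of the 11 that were lower were Lrrc59, at −1.02 on the log2 scale, and Dcaf10, at −0.91. Whether pairing of the guide with any of these stretches had a part in the changes was not tested.

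Tbx2 mRNA was lower with siTbx2. Its log2 fold change was −2.96 (95% interval −3.39 to −2.53, adjusted p = 1.42e-38 from DESeq2), which left 12.8% of the level in siControl cells (9.51 to 17.3%). Its closest relative Tbx3, which has overlapping roles in other tissues, had a mean normalized count of 2.34 and no adjusted p, so a change of Tbx3 was not detectable at this depth. The study, citing earlier work, describes B16 cells as not expressing Tbx3. The genes that the study follows by name moved in both directions. Cdkn1a was 3.05-fold higher (95% interval 2.01 to 4.61, adjusted p = 1.62e-06 from DESeq2). E2f1, the activating E2F factor, was at 30.6% of the siControl level (23.1 to 40.3%), Cdk2, the kinase of the G1/S transition, at 45.4% (35.9 to 57.4%), and Ccne2, a cyclin partner of Cdk2, at 28.0% (16.9 to 46.3%), all 3 past the test. E2f3, another activating E2F, went the other way and was 1.58-fold higher (1.23 to 2.03). Met, the receptor of hepatocyte growth factor, was at 42.9% (35.4 to 52.1%). Ndrg1, a stress-responsive gene, had a log2 fold change of −0.12 with an interval from −0.97 to 0.73 and did not pass. Cdh1, which encodes E-cadherin, was lower at −2.58 (standard error 0.69, adjusted p = 0.000998 from DESeq2), but at a mean of only 7.74 normalized counts.

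Tbx2 siRNA was followed by changes across a large part of the transcriptome. Of the 23393 genes, 2524 had a mean of 0 and 11605 had an adjusted p, the lowest of these at a mean of 2.83. By an adjusted p under 0.05, 2147 genes were higher with siTbx2 (18.5% of those tested) and 2081 were lower (17.9%), which leaves 7377 that did not pass. These 2 percentages are the background against which the counts of gene groups below stand. Most changes were moderate. The median called gene was 1.69-fold higher or at 60.0% of the siControl level. At least 2-fold changes were seen for 716 genes called higher and 655 called lower, and at least 8-fold changes for 43 and 11. The 95% interval lay wholly beyond a 2-fold change for 215 higher and 224 lower genes. The share called lower grew with abundance, at 2.47% of genes with a mean under 10, 16.5% between 50 and 100 and 29.6% between 500 and 1000, whereas the share called higher stayed between 19.4 and 21.5% over those with means from 50 to 5000. Standard errors fell over the same range, with a median of 0.73 under 10 and 0.12 between 500 and 1000. The extremes of the fold change were therefore genes of low mean, among them Lmo2 at 7.79 (standard error 1.33) and Pkn3 at −4.04 (0.68), which were named after their values were seen.

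The split between higher and lower depended on the scaling. Spike-in transcripts supplied at equal amounts in both mixes had a median log2 fold change of −0.16 (10 with a mean of 50 or more, range −0.22 to 0.07), so on their scale all genes shift up by that amount. Centred on these spike-ins, 3227 genes were higher and 1423 lower, which makes 69.4% of calls higher, against 50.8% on the deposited scale. All values below are on the deposited scale. On the spike-in scale 27.8% of tested genes were higher and 12.3% lower. Spike-ins supplied at unequal amounts had subgroup medians of −2.12, 0.39 and 0.75, so the 2 groups received different mixes. By the study's methods the libraries started from an equal mass of RNA, so the spike-in scale is per RNA mass and not per cell. List medians that turn on that scale are those of E2F and pocket proteins, mitochondrial ribosomal proteins and secreted factors, given below, of partners of Tbx2 (PRC1.1 and NCoR, −0.07 on the deposited and 0.09 on the spike-in scale) and of glycolysis (−0.11 and 0.05).

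**Figure D1:**
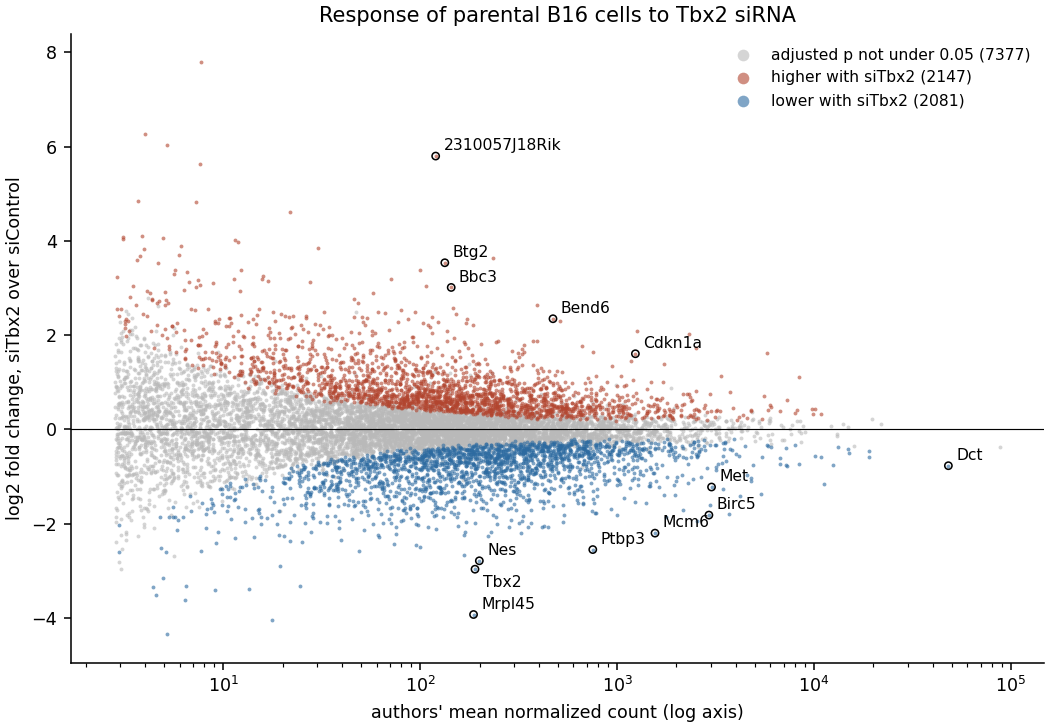
Each point is 1 of the 11605 tested genes, with the mean normalized count on a log axis against the log2 fold change of siTbx2 over siControl in parental cells. The 2147 genes called higher and 2081 called lower lie on both sides over the whole range of abundance, and Tbx2 and Mrpl45 stand at −2.96 and −3.92.

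The genes with the firmest changes were chosen by the 95% bound nearest to 0, 12 in each direction, with means under 50 left out. Among those that rose, 2310057J18Rik, a gene whose function is not described in the sources used here, led with a 55.7-fold higher level (95% interval 29.2 to 107). Btg2, an antiproliferative gene of the BTG/TOB family, was 11.6-fold higher (7.98 to 16.9), and Bbc3, which encodes the proapoptotic BCL2 family member Puma, 8.08-fold higher (5.76 to 11.3). Rgs16 and Rgs2, whose products shorten signalling by G proteins, were 10.4-fold and 8.27-fold higher. Cyp26b1, an enzyme that degrades retinoic acid, was 12.4-fold higher with a wide interval (6.62 to 23.4). The transcription factor gene Foxp2 was 9.11-fold, the protocadherin gene Pcdh17 7.46-fold and the ephrin receptor gene Epha7 5.58-fold higher. Ano3, of the anoctamin family, was 5.98-fold, Bend6, a BEN domain gene, 5.10-fold and Pvt1, the noncoding neighbour of Myc, 5.44-fold higher.

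Among the genes that fell, Mrpl45 was at 6.58% of the siControl level (4.87 to 8.90%), below Tbx2 at 12.8%. Replication was represented by Orc6, a subunit of the origin recognition complex, at 15.7% (11.7 to 21.1%) and Mcm6, of the replicative helicase, at 21.8% (16.7 to 28.4%). Nes, which encodes the intermediate filament nestin of neural progenitors and of dedifferentiated melanoma cells, was at 14.5% (8.81 to 23.9%). RNA handling and translation were represented by Ptbp3, a splicing repressor, at 17.1%, and Eif2d, an initiation factor, at 17.7%. The others were Hsd17b7, of cholesterol synthesis, at 18.2%, Cav2, a caveolin, at 20.9%, the receptor gene Tgfbr1 at 23.1%, Mreg, which takes part in melanosome transfer, at 23.9%, and Tmem48, a membrane protein of the nuclear pore, at 22.2%. Of these 12, 7 have a match to the guide seed in the 3′ UTR (Tbx2, Ptbp3, Orc6, Hsd17b7, Cav2, Tgfbr1 and Mreg), 4 have none and Tmem48 was not searched, against 2 of the 12 that rose (Foxp2 and Ano3).

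**Figure D2:**
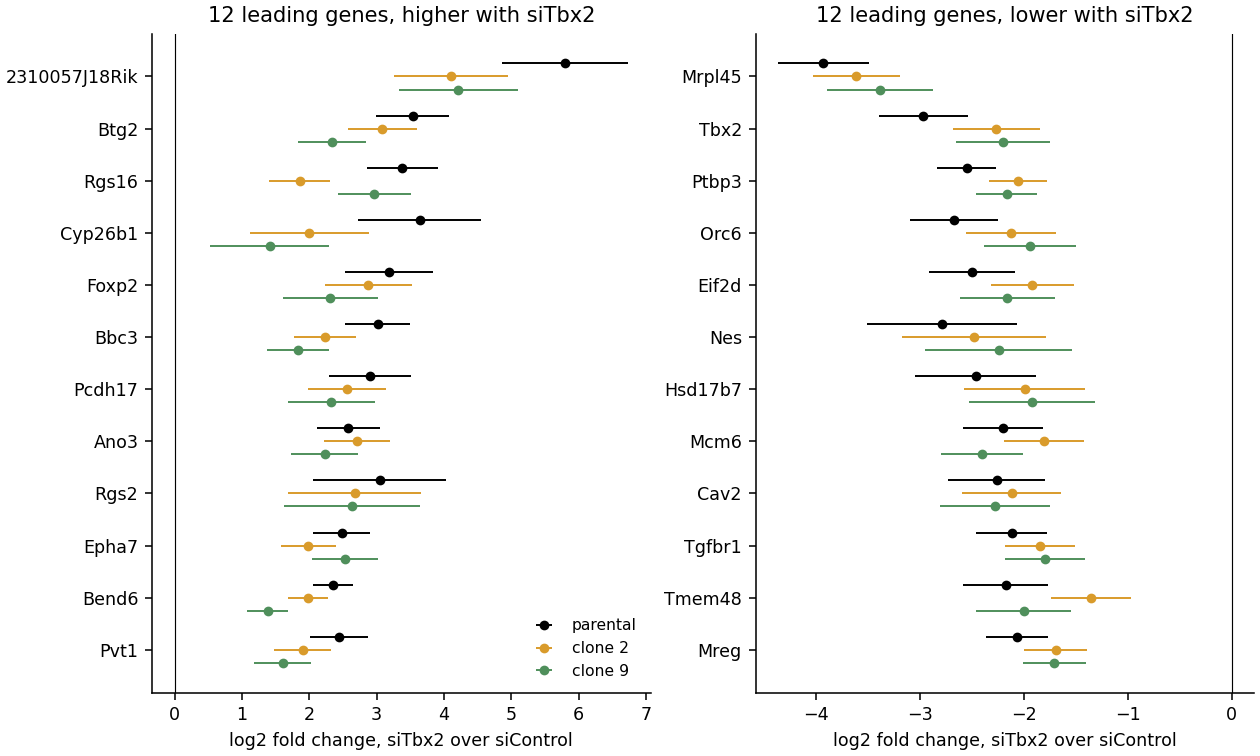
Log2 fold changes of siTbx2 over siControl with 95% intervals for the 12 leading genes in each direction, in parental cells (black), clone 2 (orange) and clone 9 (green). All 24 genes keep their sign in the 3 lines, and the largest values are those of 2310057J18Rik (5.80) and Mrpl45 (−3.92) in parental cells.

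To describe the response by function, 56 gene lists were counted. Some genes stand in several lists, so the counts of different lists are not independent. Bax and Bbc3 count among both p53 targets and BCL2 family genes, and Gadd45a among both p53 and FoxO targets. The highest shares of members called lower belonged to lists of DNA replication and mitosis. The highest shares called higher belonged to p53 targets, RGS genes, AP-1 and immediate early genes, and cadherins.

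**Figure D3:**
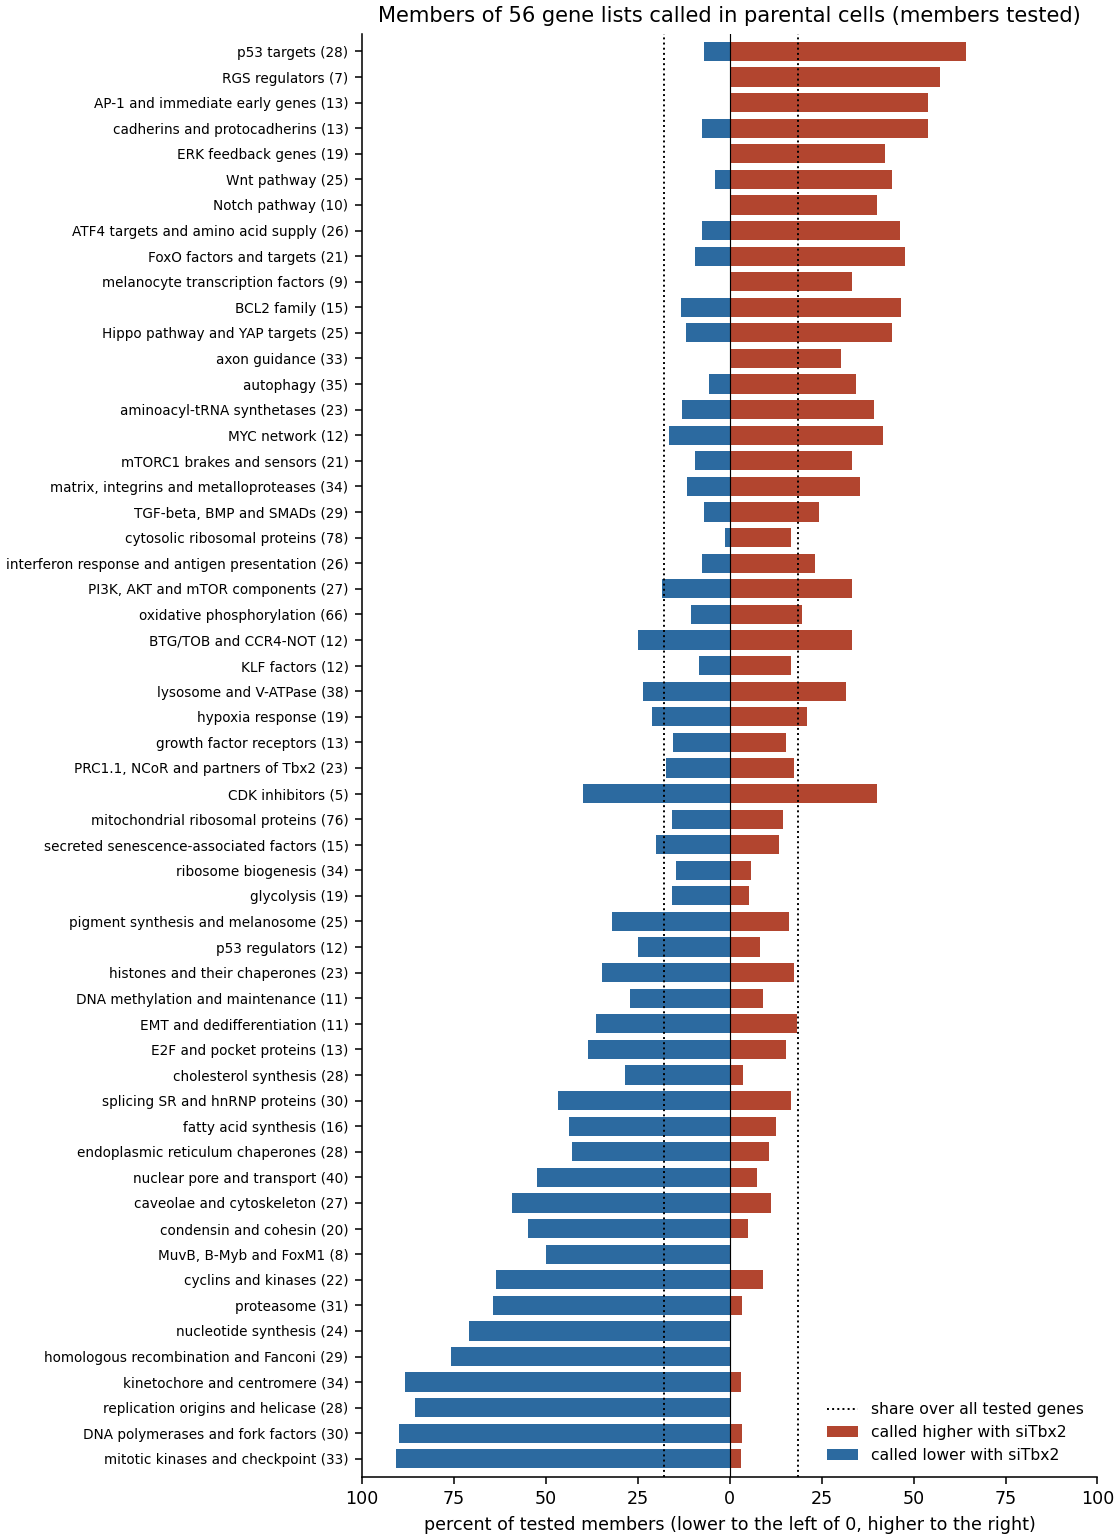
Percent of the tested members of each of 56 gene lists called higher (right of 0) or lower (left of 0) with siTbx2 in parental cells, with the number of members tested in brackets. Dotted lines mark the shares over all tested genes, 18.5% higher and 17.9% lower.

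Transcripts of DNA replication genes were lower for nearly every step. Of 28 tested genes of replication origins and the helicase, 24 fell and 0 rose, with a median log2 fold change of −1.08 against 0.02 over all tested genes. Apart from Orc6 (−2.67, standard error 0.22) and Mcm6 (−2.20, 0.20), Cdc6, which loads the helicase, was at −1.92 (0.24) and Mcm5, another helicase subunit, at −1.76 (0.21). Polymerases and fork factors behaved alike, with 27 of 30 lower, 1 higher and a median of −1.07. Lig1, which seals Okazaki fragments, was at −1.71 (0.24), Clspn, which encodes the checkpoint adaptor claspin, at −1.70 (0.21) and Dna2, a nuclease of fragment processing, at −1.65 (0.25). Genes of nucleotide supply followed, with 17 of 24 lower, 0 higher and a median of −0.61. Dck, a kinase of deoxynucleoside salvage, was at −1.89 (0.33), Dhodh, of pyrimidine synthesis, at −1.64 (0.27) and Tk1, the thymidine kinase of S phase, at −1.47 (0.23).

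Genes that repair replicated DNA were lower too, while the lists of histones and of DNA methylation moved both ways. Of 29 genes of homologous recombination and the Fanconi pathway, 22 fell and 0 rose (median −1.0), among them Fanci, of the Fanconi pathway, at −2.02 (standard error 0.20). The checkpoint kinase genes Chek1 and Chek2 were at −1.60 (0.23) and −1.34 (0.19). Among histones and their chaperones, 8 of 23 were lower and 4 higher (median −0.21), and 8 were lower and 6 higher when centred on the spike-ins (median −0.05). The chaperone genes Hat1, an acetyltransferase of new histone H4, and Asf1b were at −1.55 (0.17) and −1.40 (0.20), and the variant H2afz was at −1.13 (0.16). In contrast H2afx and Hist2h2be, histone genes with polyadenylated transcripts, were higher at 1.46 (0.18) and 1.29 (0.23). Of 11 genes of DNA methylation and its maintenance 3 fell and 1 rose, with a list median of 0.21. Those that fell were Uhrf1 (−1.81, 0.30) and Dnmt1 (−1.06, 0.16), which copy methylation to new DNA, and the remodeller gene Hells (−1.0, 0.17). Centred on the spike-ins, 6 rose and 3 fell.

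Mitosis formed the other large block. Of 33 mitotic kinases and checkpoint genes 30 fell and 1 rose (median −1.18), and of 34 genes of the kinetochore and centromere 30 fell and 1 rose (median −1.07). Birc5, which encodes survivin, was at −1.82 (standard error 0.19), Pbk, a mitotic kinase gene with a match to the guide seed, at −1.99 (0.32), Cdca5, which encodes sororin, a protector of cohesion, at −1.94 (0.22) and Melk, a kinase gene of proliferating cells, at −1.70 (0.22). The member of the mitotic kinase and checkpoint list that rose was Pttg1, which encodes securin, at 0.53 (0.18). At the kinetochore Ska1 was at −2.19 (0.30), Nuf2 at −1.86 (0.24), Oip5, which takes part in loading the centromeric histone, at −1.79 (0.24) and Spc25 at −1.62 (0.23). Of 20 condensin and cohesin genes 11 fell and 1 rose. The condensin genes Ncapg (−2.0, 0.30), Ncapg2 (−1.86, 0.31) and Smc2 (−1.48, 0.21) were among them, and Esco1, a cohesin acetyltransferase gene, was the member that rose (0.76, 0.21).

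**Figure D4:**
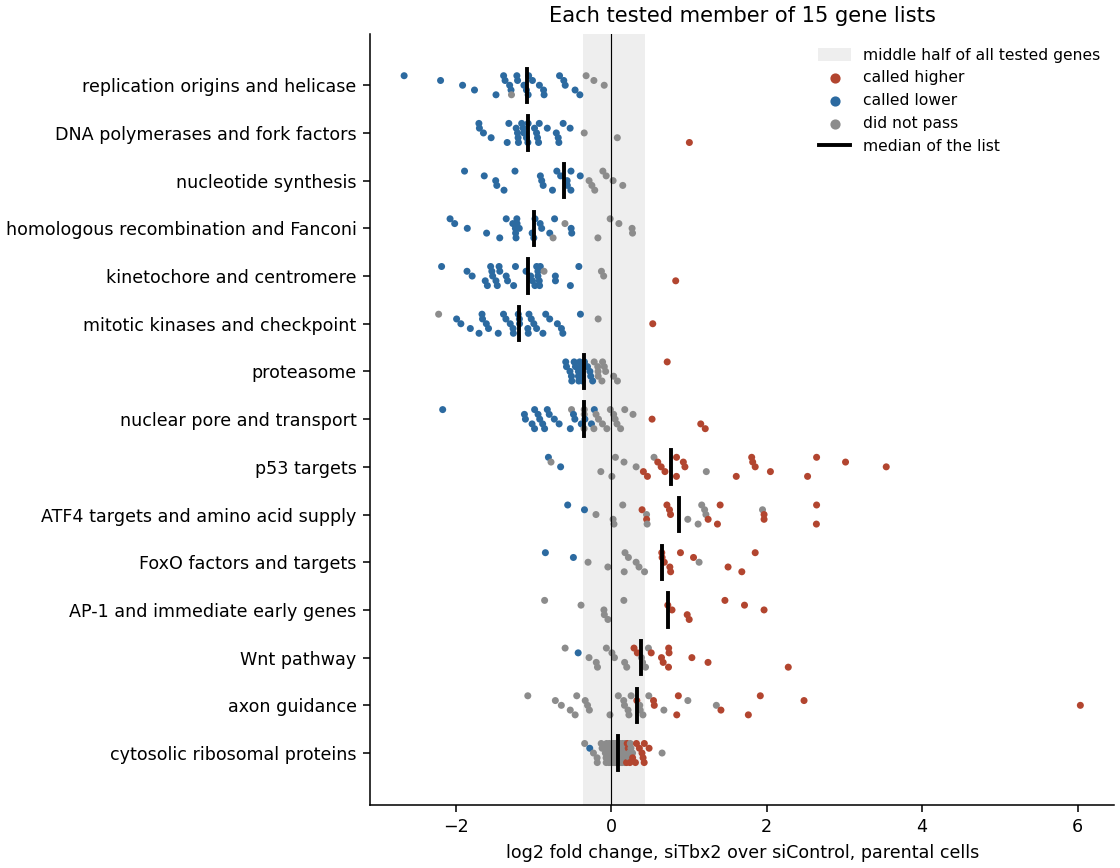
Log2 fold change in parental cells of every tested member of 15 gene lists, with the median of each list as a black bar and the middle range of all tested genes (quartiles −0.35 and 0.41) shaded. The 6 lists of replication, repair and mitosis have medians between −1.18 and −0.61. Those of p53 targets, ATF4 targets, FoxO targets, and AP-1 and immediate early genes lie between 0.65 and 0.87.

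The regulators above these blocks were not uniform. Of 22 cyclin and kinase genes 14 fell and 2 rose. The cyclins of S phase and mitosis fell, with Ccnb2 at −1.53 (standard error 0.23), Ccnf at −1.51 (0.17) and Ccna2 at −1.43 (0.22), as did the phosphatase gene Cdc25b at −1.31 (0.17). The 2 that rose were the G1 genes Ccnd1, for cyclin D1, at 0.55 (0.20) and Cdk4, its kinase, at 0.37 (0.10). Of 13 E2F and pocket protein genes 5 fell and 2 rose. E2f8 (−1.80, 0.24), E2f2 (−1.70, 0.31) and the pocket protein gene Rbl1 (−1.05, 0.21) fell with E2f1, and E2f5 (0.75, 0.18) rose with E2f3. The list as a whole has a median of −0.07, which turns to 0.09 when centred on the spike-ins. Foxm1, the factor of mitotic gene expression, was at −1.02 (0.19), and 4 of 8 genes of its group fell, against 1 of 8 when centred on the spike-ins. Among 5 inhibitors of cyclin-dependent kinases, Cdkn1a (1.61, 0.31) and Cdkn1b, for p27 (0.99, 0.18), rose and Cdkn2d, for p19 (−1.37, 0.19), and Cdkn1c, for p57 (−3.51, 1.40, at a mean of 4.58), fell.

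Because E2F and mitotic genes have known promoter elements, RefSeq promoter windows on GRCm38.p6, from 250 bases before to 50 after a start site, were searched on both strands. The E2F sites were TTTCCCGC, TTTGGCGC and TTTCGCGC, and any of them was present in 6.33% of the windows of genes called lower (126 of 1992, 95% Wilson interval 5.34 to 7.48%), against 2.25% of genes called higher (48 of 2137, 1.70 to 2.97%), 3.53% of tested genes and 1.84% of all windows. The last 2 of these motifs may overlap on opposite strands. Some genes have several windows, and intervals cover counting error only. Among replication origin and helicase genes the share was 38.5% (10 of 26), among polymerases and fork factors 29.0% (9 of 31), and among mitotic kinases and checkpoint genes 0 of 31. The last list had the CHR element TTTGAA in 67.7% of windows (21 of 31, 50.1 to 81.4%) and a CCAAT box, CCAAT, in 71.0% (22 of 31), against 11.6% and 37.8% of tested genes. Other lists of mitosis did not share this split. Kinetochore and centromere genes had an E2F site in 13.3% (4 of 30) and CHR in 36.7% (11 of 30). Condensin and cohesin genes had each in 40% (6 of 15). The CHR element was in 14.8% of windows of genes called lower and 11.4% of those called higher, against 17.9% of all windows. The T-element AGGTGTGA was found in 0.602% of windows of genes called lower and 0.749% of those called higher, against 0.707% of tested genes. The E-box CACGTG was likewise near the tested share of 10.1% in both directions, with 11.2% in lower and 9.97% in higher genes. A match in these letters is not a binding site, and windows without a match say nothing about the factor.

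The following 30-base stretches show such matches, in capitals, in genes described above. The first 3 carry E2F sites in genes that fell, Ccnb2 a CHR element, and Cdkn1a a T-element. In Cdc6 and Cdk2 the match is the reverse complement of TTTCCCGC.
Cdc6: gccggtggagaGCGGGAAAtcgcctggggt
Mcm6: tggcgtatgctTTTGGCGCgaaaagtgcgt
Cdk2: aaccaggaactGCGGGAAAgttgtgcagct
Ccnb2: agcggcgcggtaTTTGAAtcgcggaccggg
Cdkn1a: cagcagccgagAGGTGTGAgccgccgcggt
They lie at chr11:98908002-98908031 on the plus strand, chr1:128359797-128359826 on the minus strand, chr10:128705173-128705202 on the minus strand, chr9:70421533-70421562 on the minus strand and chr17:29093771-29093800 on the plus strand. The T-element of Cdkn1a begins at base 14 after a RefSeq start site of the gene. Among other genes chosen for naming, the same motifs occurred with either direction of change. T-elements were also found in E2f2 (−1.70), Hirip3 (−1.28), Hsp90b1 (−0.59) and Psmd13 (−0.53), which fell, and in Sgk1, which rose. E2F sites were also found in E2f3, Ipo7, Notch2 and Zeb2, which rose. CHR elements were also found in genes that rose, among them 2310057J18Rik, Bax, Bcl2 and Tgfbr2. Others with a CHR element fell, such as Ccnf, Cdca5 and Spc25.

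Targets of p53 were higher with siTbx2. Of 28 tested, 18 rose and 2 fell, with a median of 0.76. Besides Btg2 and Bbc3, Plk2, a stress-induced polo-like kinase gene, was at 2.52 (standard error 0.45) and Gadd45a, of the DNA damage response, at 1.85 (0.54). Trp53inp2, which acts in autophagy, was among the 2 that fell (−0.81, 0.14). The regulators of p53 did not move as a group, with 1 of 12 higher and 3 lower. The falls were those of Chek1, Chek2 and Atm, the damage-sensing kinase gene (−1.08, 0.16), and Rfwd2, a ubiquitin ligase gene for p53, rose by 0.53 (0.13). Of 15 BCL2 family genes 7 rose and 2 fell, and the rises included both proapoptotic and antiapoptotic members. Bax, which permeabilises mitochondria, was at 0.84 (0.16) and its BH3-only partner Bid at 0.66 (0.16), while the survival gene Bcl2 was at 0.95 (0.13). Bak1 (−0.43, 0.13) and Bnip3 (−1.11, 0.47) fell.

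Genes of stress and nutrient signalling rose in part. Of 26 ATF4 targets and genes of amino acid supply 12 rose and 2 fell (median 0.87). Ddit4, a brake on mTORC1 that is counted here, was at 2.64 (standard error 0.36), and its relative Ddit4l at 2.34 (0.24). The stress factor genes Nupr1 and Atf3 were at 1.97 (0.69) and 1.96 (0.67), with wide errors, and Slc1a4, an amino acid transporter gene, at 1.40 (0.25). Slc7a5, a transporter gene of large neutral amino acids, fell by 0.35 on the log2 scale (0.12). Genes for aminoacyl-tRNA synthetases rose in 9 of 23 cases and fell in 3, with Nars at 0.62 (0.15) and Dars, which has a seed match, at −1.09 (0.13). Of 21 FoxO factors and targets 10 rose and 2 fell (median 0.65). Pik3ip1, an inhibitor of PI3K, was at 1.68 (0.25) and Trib1, a pseudokinase gene, at 1.06 (0.20), while Txnip, which restrains glucose uptake, fell (−0.85, 0.30).

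Genes of PI3K, AKT and mTOR signalling moved both ways, with 9 of 27 higher and 5 lower. The kinase genes Sgk1 (2.50, standard error 0.36) and Sgk3 (1.72, 0.21), relatives of AKT, and Mlst8, a subunit of both mTOR complexes (1.06, 0.17), rose. Pik3ca, a catalytic subunit gene of PI3K, rose slightly (0.63, 0.12), whereas Pik3cb, another catalytic subunit gene with 2 seed matches, fell (−1.25, 0.20), as did Telo2, of the chaperone complex that assembles mTOR (−1.12, 0.14). AP-1 and other immediate early genes rose in 7 of 13 cases and none fell, with Jun at 1.71 (0.23), Junb at 1.46 (0.35) and Ier5 at 1.0 (0.17). Feedback genes of the ERK pathway rose in 8 of 19 cases and none fell. Spry2, an inhibitor of receptor signalling, was at 1.12 (0.25), and the phosphatase genes Dusp6 and Dusp2 were at 1.0 (0.20) and 0.89 (0.15). In the MYC network 5 of 12 rose and 2 fell, and 8 rose when centred on the spike-ins. Myc itself was at 1.21 (0.39) and its antagonists Mnt and Mxi1 at 1.20 (0.21) and 0.72 (0.17).

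Cell surface and developmental signalling genes were more often higher than lower. Of 25 Wnt pathway genes 11 rose and 1 fell. The receptor gene Lgr6, which has 3 seed matches, was at 2.28 (standard error 0.40), the frizzled gene Fzd2 at 1.24 (0.24), and Apc, of the beta-catenin destruction complex, at −0.43 (0.12). Of 10 Notch pathway genes 4 rose and 0 fell, led by the ligand gene Jag1 at 2.10 (0.28) and the coactivator gene Maml1 at 1.37 (0.28). Of 33 axon guidance genes 10 rose and 0 fell, with the netrin receptor gene Unc5b at 1.76 (0.42) and the ephrin gene Efna5 at 0.86 (0.14) behind Epha7. In the Hippo pathway and among YAP targets 11 of 25 rose and 3 fell, with the matricellular gene Ctgf at 1.58 (0.50), the kinase gene Lats1 at 0.89 (0.15) and the DNA-binding partner Tead2 at −1.09 (0.21). The TGF-beta receptors parted, since Tgfbr2 was higher (1.33, 0.17) and Tgfbr1 lower (−2.12, 0.17).

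Adhesion and matrix genes also rose more than they fell. Of 13 cadherins and protocadherins 7 rose and 1 fell, and Cdh2, for N-cadherin, was 3.17-fold higher (95% interval 2.49 to 4.03) where Cdh1 was lower. Of 34 genes of matrix, integrins and metalloproteases 12 rose and 4 fell. Adamts1, a secreted protease gene, was at 2.08 (standard error 0.20), and the integrin genes Itga9 and Itgb3 were at 1.40 (0.23) and 1.06 (0.26), while Mmp14, a membrane-bound protease gene, was at −1.23 (0.14). The cytoskeleton went the other way, with 16 of 27 genes of caveolae and cytoskeleton lower and 3 higher (median −0.59). Besides Cav2, those that fell included Tubb6, a tubulin gene (−1.12, 0.20), Vcl, for vinculin (−1.04, 0.20), and Stmn1, for the microtubule destabiliser stathmin (−0.89, 0.23). In the short list of EMT and dedifferentiation genes, Nes, Cdh1, Cd44 (−0.73, 0.15) and Vim (−0.35, 0.13) fell and Cdh2 and Zeb2 (0.38, 0.15) rose.

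In the following lists of protein and RNA handling more genes fell than rose. Of 31 proteasome genes 20 fell and 1 rose, with a median of −0.35. Centred on the spike-ins, 9 fell and 2 rose, with a median of −0.19. The regulatory subunit genes Psmd2 and Psmd3 were at −0.59 (standard error 0.09) and −0.58 (0.12), and Psmd8 was the member that rose (0.72, 0.10). Of 40 genes of the nuclear pore and nuclear transport 21 fell and 3 rose (median −0.35), among them Nup85 at −1.12 (0.13) and the transport GTPase gene Ran at −1.02 (0.15). Splicing factors split into 14 lower and 5 higher of 30, with Srsf2 at −1.61 (0.16), Hnrnpf at −1.30 (0.14) and Ptbp2 at 0.99 (0.19). Among the 21 splicing genes without a seed match or not searched for one, 8 fell and 5 rose. Their median was 0.05, against −0.21 for all 30. Among 28 endoplasmic reticulum chaperones and regulators 12 fell and 3 rose. Calr, for the calcium-binding chaperone calreticulin, was at −1.95 (0.19), Hsp90b1 at −0.59 (0.15), and Crebrf, which restrains the CREB3 factors, at 2.33 (0.28).

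Of 78 cytosolic ribosomal protein genes 13 rose and 1 fell, with a median of 0.09, and Rps24 was the highest of those that rose, at 0.48. Centred on the spike-ins, 40 rose and 0 fell, with a median of 0.25. Mitochondrial ribosomal protein genes rose in 11 and fell in 12 of 76 cases, and after Mrpl45 the next fall, of Mrpl28, was −1.0 (standard error 0.15). Their median of −0.07 turns to 0.09 when centred on the spike-ins, with 19 higher and 7 lower. Oxidative phosphorylation had 13 higher and 7 lower of 66 (median 0.03), and 26 higher and 1 lower when centred on the spike-ins. Lysosome and V-ATPase genes parted into 12 higher and 9 lower of 38, with Glb1, for the beta-galactosidase used as a senescence stain (0.71, 0.16), higher, and Npc2, of cholesterol export (−1.05, 0.11), and Atp6v1a, of the proton pump (−1.01, 0.09), lower. Autophagy genes rose in 12 and fell in 2 of 35 cases, led by Wipi1 at 1.73 (0.23). Of 28 cholesterol synthesis genes 8 fell and 1 rose, but their median was 0.11. Among the 24 without a seed match or not searched for one, 5 fell and 1 rose, with a median of 0.13. Centred on the spike-ins, 8 of the 28 fell and 5 rose. Of 16 fatty acid synthesis genes 7 fell and 2 rose (median −0.22), and 5 fell and 4 rose when centred on the spike-ins (median −0.06). Me1, a source of NADPH, was at −2.04 (0.17) and Sqle, of sterol synthesis, at −0.95 (0.15). The sensor gene Insig1, which retains the factor of sterol genes in the endoplasmic reticulum, was the cholesterol list member that rose on the deposited scale (1.07, 0.25).

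The melanocytic character of the line showed in its markers. All 7 melanocytic markers were detected, the lowest, Tyr, at a mean of 294. Dct and Tyrp1, enzymes of pigment synthesis, were lower at −0.77 and −0.75 (standard errors 0.15 and 0.14), and Pmel, Tyr, Mlana, Mitf and Sox10 did not pass. The log2 fold change of Mitf, the master factor of the lineage, was 0.00 (standard error 0.15), and that of Sox10 was −0.01 (0.12). Markers of other cell types were low. Of 5 epithelial markers the highest was Epcam at a mean of 0.278, of 9 leukocyte markers Cd68 at 7.09 with Ptprc at 0.029, and of 10 markers of fibroblasts and endothelium Col1a2 at 30.1 with Lum at 0. None of these markers was called. Among 25 pigment and melanosome genes 8 fell and 4 rose. Gpr143, a melanosomal receptor gene, was at −1.56 (0.21), Rab32 and Slc45a2 were at −1.02 (0.18) and −1.01 (0.18), and the pigment transporter gene Oca2 was at 0.94 (0.22). Pax3, a lineage factor, was 0.49 higher on the log2 scale (0.09).

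Of 15 secreted senescence-associated factors 3 fell and 2 rose, with Igfbp4 at −1.06 (standard error 0.19) and the macrophage growth factor gene Csf1 at 1.16 (0.27). Their median of −0.10 turns to 0.06 when centred on the spike-ins, where 1 fell and 2 rose. Of 26 genes of the interferon response and antigen presentation 6 rose and 2 fell. B2m, the light chain of MHC class I, was at 1.34 (0.15).

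Genes with a match to the guide seed were lower more often than genes without. The site AAATTTC was searched in the 3′ UTRs of 10525 tested genes. Genes without a site were lower in 17.1% and higher in 19.2% of cases. With 1 site these shares were 26.1% lower and 14% higher, and with 2 sites 34.3% and 11.6%, while the median log2 fold changes were 0.03 without a site, −0.10 with 1 and −0.18 with 2. Sites were most frequent among the firmest falls, at 44 of the first 100 genes that fell, ranked as above among those with a searched 3′ UTR, against 16 of the first 100 that rose. Of all 10525 genes 1486 had a site. Leaving out every gene with a site, but keeping genes whose 3′ UTR was not searched, 1945 genes were higher and 1672 lower. Among searched genes without a site, 1738 were higher and 1542 lower. In the cell cycle lists, with unsearched genes likewise kept, falls numbered 21 of 25 for origins and helicase. They numbered 24 of 27 for polymerases and fork factors, 28 of 32 for the kinetochore and 26 of 28 for mitotic kinases. Of 23 p53 targets kept in this way, 15 rose. The part of the guide seed in the falls of single genes was not tested.

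The length of the 3′ UTR moved with the direction of change as well. Among genes without a site, the share called higher was 13.4% for 3′ UTRs of 30 to 500 bases and 29.7% for those of 4000 bases or more, and the share called lower was 20.6% and 11%. Genes with a site had larger shares called lower at every length, 40.3% for the shortest 3′ UTRs and 19% for the longest. Long 3′ UTRs hold more sites, with a median length of 2388 bases for genes with 1 site against 1053 for those without, so the raw shares by number of sites also carry this difference. Long noncoding RNA genes were also more often higher than lower. Of 262 tested, 71 were higher and 14 lower (27.1% and 5.34%), at a median mean of 11.4 normalized counts, against 18.4% and 18.5% of 10436 protein-coding genes at a median mean of 110. What the length or the noncoding class had to do with the direction was not tested.

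**Figure D5:**
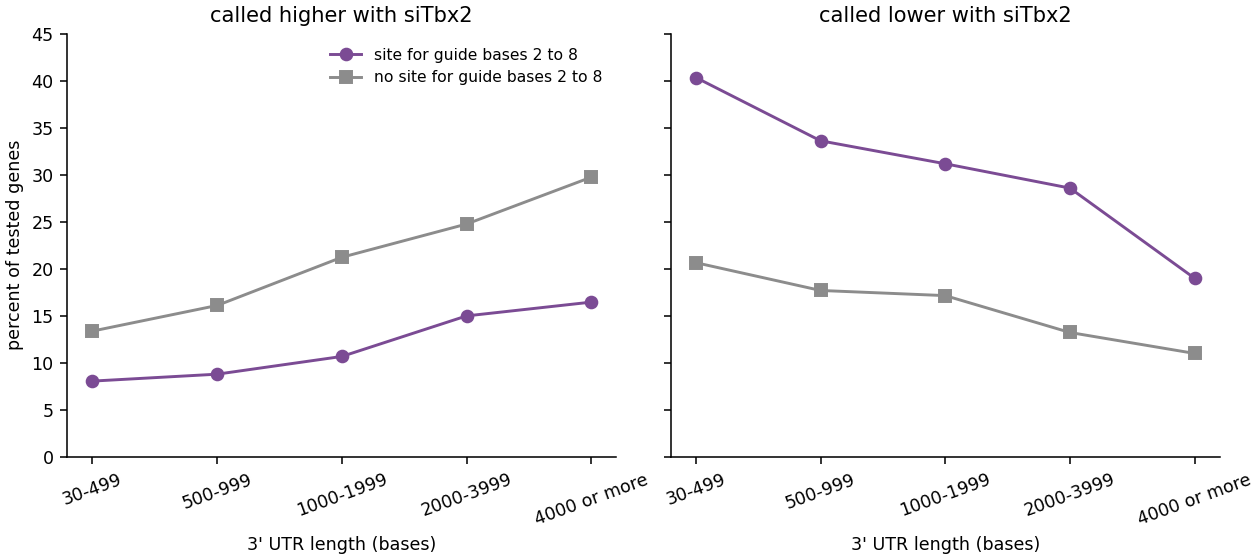
Percent of tested genes called higher (left) or lower (right) with siTbx2 in parental cells, by length of the 3′ UTR in bases, for genes with (circles) and without (squares) a site for guide bases 2 to 8. At each length genes with a site are lower more often, from 40.3% to 19%, than genes without, from 20.6% to 11%.

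Whether the response of the unedited line differed from that of the tagged clones was tested for each gene by dividing the difference of the log2 fold changes by its standard error, taken from those of both lines. Of 11605 genes, 0 passed an adjusted p of 0.05 against clone 2 (409 with an unadjusted p under 0.05, smallest adjusted p = 0.0931 in this z test) and 0 against clone 9 (437, smallest adjusted p = 0.0518). A gene called in parental cells and not in a clone is therefore not shown to respond in parental cells alone. For Tbx2, parental cells minus clone 2 gave −0.70 (standard error 0.31) and parental cells minus clone 9 gave −0.77 (0.32). The smallest adjusted p against clone 2 was shared by Rgs16, at 3.38 in parental cells against 1.86 in clone 2, and Psmc1, a proteasome gene, at −0.42 against 0.13. Cdh1, at −2.58 in parental cells against 0.12 in clone 2 and −0.58 in clone 9, had differences of −2.70 (0.99) and −2.01 (1.03) that did not pass. With only the 7685 genes with a mean of 50 or more in the adjustment, 3 genes passed against clone 9 and 0 against clone 2. They were Bend6, at 2.35 in parental cells against 1.38 in clone 9 (difference 0.97, 95% interval 0.54 to 1.39), 5031439G07Rik, at −1.21 against −0.41 (−0.80, −1.16 to −0.44), and Fgfrl1, at −0.88 against 0.27 (−1.16, −1.66 to −0.65), each with an adjusted p of 0.0343 by the z test. 5031439G07Rik and Fgfrl1 were named after their values were seen. List medians in parental cells, clone 2 and clone 9 were −1.08, −0.76 and −1.11 for origins and helicase, −1.18, −0.74 and −1.42 for mitotic kinases, and 0.76, 0.76 and 0.56 for p53 targets.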

How the data were processed

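Per the labels and the study's methods, reads were quality-checked (FastQC 0.11.7) and mapped to mm10 (STAR 2.6.1d). Reads per gene came from featureCounts (Subread 1.6.2), and the authors ran DESeq2 1.28.1 on them. In the deposited table the signal column is a mean normalized count. Its log2 fold changes with their errors, the Wald score, and each p-value, raw and adjusted, are likewise the authors' deposited values, used because the table holds nothing else. With no values per library nothing was refitted.

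Groups came from the labels. A gene was called by the deposited adjusted p under 0.05, and 95% intervals are normal. Differences between lines were z tests with Benjamini-Hochberg adjustment, tested on simulated data. Named genes were Tbx2, Tbx3, those the study names, the 12 in each direction with a mean of 50 or more by the 95% bound nearest to 0, and up to 4 called members of each list in its main and 2 in its other direction with a mean of 50 or more. Not every gene chosen this way is reported here. The members and the 56 gene lists and 4 marker lists were chosen with earlier results of these data known. Of 1582 list entries, 18 were matched by another symbol and 1 was not found. Seed sites were searched in the longest annotated 3′ UTR of at least 30 bases (GENCODE vM21, GRCm38). Promoters came from RefSeq on GRCm38.p6. Spike-in subgroups were assigned from general knowledge of the product. Alternatives were other thresholds, filters, centrings and a test against 0.5. Computing used Python 3.11.15, numpy 2.4.6, pandas 2.3.3, scipy 1.17.1 and matplotlib 3.10.9.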

Additional observations from a re-analysis of the deposited data

How the results depend on the processing

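No paired analysis was possible because the deposited tables hold no values per library, and for the same reason no replicate could be left out. The count of genes called higher, 2147, was 1519 to 2220 with an adjusted p under 0.01, without the filter on low means, with floors of 10 or 50 on the mean, centred on the median of genes, or without genes holding a seed site. The count called lower, 2081, was 1568 to 2077 under the same 6 settings. With an absolute log2 fold change of 1 or more also required, 716 were higher and 655 lower, with 254 list members called. In a test against 0.5, 394 were higher and 485 lower, with 202 list members called. Centred on the 1:1 spike-ins, 3227 were higher and 1423 lower, and none of the 3570 genes also called on the deposited scale changed direction. Of 279 named genes other than Tbx2, 24 that were called no longer passed on that scale, and the value of Ndrg1 turned to 0.039 without passing on either scale. Differences between lines, 0 by the adjusted p, numbered 409 for clone 2 and 437 for clone 9 by an unadjusted p, and 3 for clone 9 among genes with a mean of 50 or more. The shares of promoters with a motif moved by less than their intervals when restricted to that mean. Tbx2 passed under every setting that kept it, since it holds a seed site and was absent when those genes were left out.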
